A study of Caenorhabditis elegans with 6 samples.

Results

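The insulin signalling pathway core of *Caenorhabditis elegans* was examined in whole young adults of the *blmp-1(s71)* mutant, with wild-type N2 animals as the control (3 libraries each). It comprised 9 genes chosen by name, *daf-2*, *ist-1*, *age-1*, *daf-18*, *pdk-1*, *akt-1*, *akt-2*, *sgk-1* and *daf-16*, and all 9 were found among the 47157 gene IDs. Total RNA was taken with TRIzol from animals synchronized as larvae and raised on plates, and TruSeq kits made the libraries, per the labels. BLMP-1 is the worm relative of the zinc finger factor BLIMP1, and the labels do not describe the s71 lesion. No other allele or agent is named for either group. The series' text calls the libraries biological replicates.

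In the insulin pathway of the worm, insulin-like peptides bind the receptor DAF-2, which acts through the PI3-kinase AGE-1 to make the lipid PIP3, and the phosphatase DAF-18 removes that lipid. PIP3 recruits the kinases PDK-1, AKT-1 and AKT-2, and AKT phosphorylation keeps the FOXO transcription factor DAF-16 out of the nucleus. The pathway is known for its control of dauer entry, adult lifespan, fat storage, stress resistance and germline proliferation. Much of this control acts on protein activity and localization, which RNA levels do not measure.

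Mutant libraries 1, 2 and 3 held 6586154, 13711720 and 9893919 reads on genes, and wild-type libraries 1, 2 and 3 held 5255125, 13319362 and 15218178. Both libraries numbered 1 had the fewest reads of their group and the most ribosomal RNA, 4.56% in the mutant and 4.0% in wild type, against 0.841% to 1.28% in the other 4. *blmp-1* itself had 157, 215 and 92 reads in the mutant libraries, against 61, 130 and 165 in the wild-type libraries (log2 fold change 0.16, SE 0.32, limma adjusted p = 0.697), so its level does not check the genotype. Levels below are CPM (reads scaled to a fixed total per library) divided by a TMM factor per library, called scaled CPM. A gene was called when limma on log2(scaled CPM + 1) gave a Benjamini-Hochberg adjusted p under 0.05 over 13756 tested genes. A log2 fold change is on that scale, mutant minus wild type, which understates changes of genes with few reads.

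In the mutant, transcripts of the enzyme that makes PIP3 and of the phosphatase that removes it were both lower, while the transcript of their downstream target, *daf-16*, was at 170.3 ± 6.98 scaled CPM in the mutant and 162 ± 21.2 in wild type (SD, n = 3 each). *daf-18* fell by 1.18 and *age-1* by 0.86 on the log2 scale, and none of the other 7 genes passed the test. limma thus called 2 of 9 genes, or 22.2%, both lower in the mutant, against 22.3% of all tested genes called in either direction and 13.4% called lower. The share called among the 9 genes was therefore that of the whole transcriptome. edgeR and DESeq2 on the recovered reads also called *daf-18* and *age-1* and no other member, against 20.5% and 27.2% of all tested genes. On scaled CPM, mutant and wild-type values did not overlap for 3 of the 9 genes, *daf-18*, *age-1* and *akt-1*, or 33.3%, against 48.6% of all tested genes. The *akt-1* groups overlapped on the deposited TPM.

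**Figure D1:**
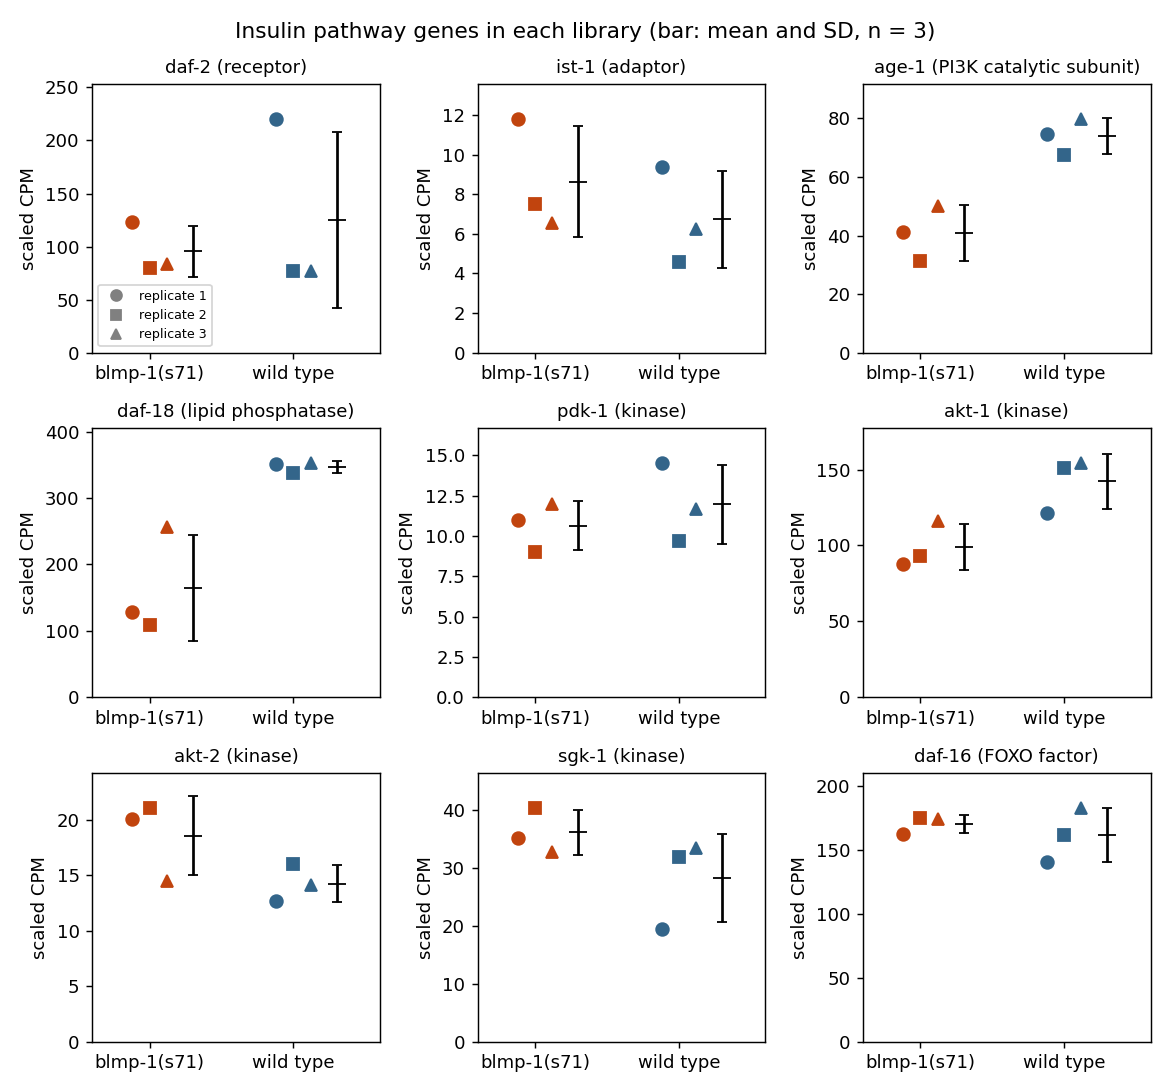
Scaled CPM of the 9 genes in each library, with the mutant left of wild type; points are libraries (shape gives the replicate number) and the bar to the right of each group is the mean ± SD over 3 libraries. The mutant points of *daf-18*, *age-1* and *akt-1* all lie below the wild-type points, and *daf-2* is highest in wild-type library 1, at 220.5.

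At the top of the pathway, *daf-2* (WBGene00000898, chromosome III, 2994514 to 3040846, minus strand, WBcel235), which encodes the insulin/IGF receptor, had 123, 79.5 and 83.9 scaled CPM in mutant libraries 1, 2 and 3, against 220.5, 76.9 and 77.2 in wild-type libraries 1, 2 and 3. The groups overlapped, and wild-type library 1 stood far above the other 5. Its log2 fold change was -0.22 (SE 0.41, 95% interval -1.16 to 0.71, adjusted p = 0.683), and it was 0.37 without wild-type library 1 (adjusted p = 0.260). In each group *daf-2* was highest in the library numbered 1, which also had the most ribosomal RNA. The same libraries were the highest of their group in the mean of 8 body wall muscle markers, 0.98 in mutant library 1 and 1.08 in wild-type library 1 relative to the wild-type mean (log2), against -0.78 to -0.06 in the other 4. All 8 muscle markers were tested, none was at 0, and 0 passed in limma, edgeR or DESeq2, where the unadjusted limma p was also above 0.05 for each. They summed to between 7989 and 14940 scaled CPM in the mutant and between 5207 and 17580 in wild type. The part of RNA quality or of muscle content in the *daf-2* values was not tested.

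*ist-1* (WBGene00002163, chromosome X, 7126648 to 7139666, plus strand), which encodes an adaptor related to insulin receptor substrates, was the least abundant member. It had 11.8, 7.53 and 6.56 scaled CPM in the mutant libraries, against 9.36, 4.56 and 6.25 in the wild-type libraries. These values overlapped and rest on 70 to 125 reads per mutant library and 40 to 84 per wild-type library. The log2 fold change was 0.33 (SE 0.31, 95% interval -0.34 to 0.99, adjusted p = 0.407).

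*age-1* (WBGene00000090, chromosome II, 11519328 to 11527054, minus strand), which encodes the catalytic subunit of PI3-kinase, had 41.1, 31.4 and 50.2 scaled CPM in mutant libraries 1, 2 and 3, against 74.7, 67.4 and 79.9 in wild-type libraries 1, 2 and 3. Every mutant library lay below every wild-type library. The means were 40.9 ± 9.42 in the mutant and 74.0 ± 6.28 in wild type (SD, n = 3 each), a log2 fold change of -0.86 (SE 0.23, 95% interval -1.36 to -0.37, adjusted p = 0.0342). *B0334.10*, on the opposite strand, covers 244 exonic bases of *age-1* but had at most 8 reads in any library.

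*daf-18* (WBGene00000913, chromosome IV, 420011 to 425177, minus strand), which encodes the lipid phosphatase that opposes AGE-1, had 128, 109 and 256 scaled CPM in mutant libraries 1, 2 and 3, against 352, 337 and 353 in wild-type libraries 1, 2 and 3. The wild-type libraries lay close together, and mutant library 3 lay between them and the other mutant libraries. The means were 164 ± 80.1 in the mutant and 347 ± 8.57 in wild type (SD, n = 3 each), a log2 fold change of -1.18 (SE 0.29, 95% interval -1.82 to -0.54, adjusted p = 0.0337). No annotated gene overlaps *daf-18* in WBcel235. In whole animals, fewer cells that carry a transcript and less of it per cell cannot be told apart.

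The calls of *daf-18* and *age-1* hung on the set of libraries. With mutant library 3 left out, their log2 fold changes were -1.55 and -1.02 (adjusted p = 0.00313 and 0.00889), and with any other single library left out neither was called. Their log2 fold changes were negative in each of these 6 fits, from -1.55 to -0.93 for *daf-18* and from -1.02 to -0.69 for *age-1*. Of the 3061 genes called in all, 2907 likewise had an adjusted p between 0.03 and 0.05.

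The ratio of *age-1* to *daf-18*, taken within each library from the deposited TPM (which corrects for length and does not depend on the scaling between libraries), was 0.274, 0.248 and 0.168 in the mutant libraries, against 0.182, 0.171 and 0.194 in the wild-type libraries. The groups overlapped, so the balance of the transcripts for making and removing PIP3 did not separate them. This ratio and those below were chosen after the values had been seen and are given without a test.

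**Figure D2:**
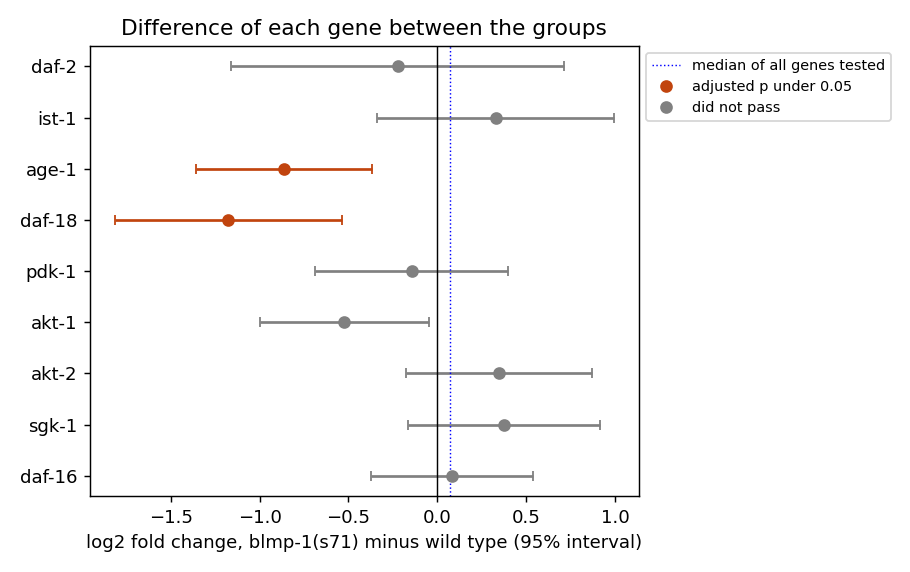
Log2 fold change of each gene (mutant minus wild type) with its 95% interval from limma, ordered down the pathway; red marks an adjusted p under 0.05 and the dotted line the median of all tested genes, 0.07. *daf-18* (-1.18) and *age-1* (-0.86) passed, and the intervals of the other genes except *akt-1* include 0.

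Of the kinases below PIP3, *akt-1* (WBGene00000102, chromosome V, 10248905 to 10252845, plus strand), which encodes an AKT kinase that acts on DAF-16, had 87.9, 92.8 and 116 scaled CPM in the mutant libraries, against 121, 151 and 154 in the wild-type libraries. The groups did not overlap on this scale, with mutant library 3 and wild-type library 1 near each other. On the deposited TPM they overlapped, at 51.7, 55.5 and 65.6 in the mutant and 62.6, 73.4 and 70.2 in wild type. The TPM log2 fold change was -0.255 (limma adjusted p = 0.276), where the median of all tested genes was 0.30. With no factor between libraries it was -0.19 (limma adjusted p = 0.556), where that median was 0.35. On scaled CPM, the log2 fold change of -0.52 (SE 0.22, 95% interval -0.998 to -0.047) had an unadjusted p of 0.0339 and an adjusted p of 0.0878, so it did not pass. Without mutant library 3 it was -0.64 and passed (adjusted p = 0.0442). *rop-1*, on the opposite strand, covers 8 exonic bases of *akt-1*, so reads of either gene there are uncertain.

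*akt-2* (WBGene00000103, chromosome X, 14147700 to 14152070, plus strand), which encodes the other AKT kinase, had 20.1, 21.1 and 14.5 scaled CPM in the mutant libraries, against 12.64, 15.97 and 14.1 in the wild-type libraries. Mutant libraries 1 and 2 lay above all wild-type libraries and mutant library 3 lay among them. Its log2 fold change was 0.35 (SE 0.24, 95% interval -0.17 to 0.87, adjusted p = 0.265). Per length, *akt-1* was the more abundant AKT transcript in every library. Its TPM was 4.28, 4.32 and 7.83 times that of *akt-2* in mutant libraries 1, 2 and 3, against 9.40, 9.28 and 10.7 times in wild-type libraries 1, 2 and 3. The ratio was lower in every mutant library than in any wild-type library, with means of 5.48 ± 2.04 in the mutant and 9.79 ± 0.782 in wild type (SD, n = 3 each). This ratio was chosen after the values had been seen, and on scaled CPM 48.6% of single genes did not overlap either. *akt-2* is on X and *akt-1* is not, and all tested genes had a median log2 fold change of 0.23 on X and 0.00 on autosomes. The part of that offset in the ratio was not tested.

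*sgk-1* (WBGene00004789, chromosome X, 16254842 to 16262122, minus strand), which encodes a kinase related to AKT and known also as a target of TOR complex 2, had 35.2, 40.4 and 32.8 scaled CPM in the mutant libraries, against 19.4, 31.9 and 33.4 in the wild-type libraries. Only wild-type library 1 stood apart, at the low end, and the log2 fold change was 0.38 (SE 0.25, 95% interval -0.16 to 0.91, adjusted p = 0.244). On the deposited TPM its groups did not overlap, at 30.2, 35.3 and 27.1 in the mutant and 14.7, 22.6 and 22.2 in wild type (log2 fold change 0.63, limma adjusted p = 0.0685). The median log2 fold change of all tested genes on TPM was 0.30. *pdk-1* (WBGene00003965, chromosome X, 1321344 to 1327986, plus strand), which encodes the kinase that activates AKT, had 10.97, 8.98 and 11.99 scaled CPM in the mutant libraries, against 14.5, 9.66 and 11.7 in the wild-type libraries. These overlapped, with a log2 fold change of -0.15 (SE 0.25, 95% interval -0.69 to 0.40, adjusted p = 0.662).

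*daf-16* (WBGene00000912, chromosome I, 10750498 to 10776703, plus strand), which encodes the FOXO factor at the end of the pathway, had 162, 175 and 174 scaled CPM in the mutant libraries, against 140.4, 162 and 183 in the wild-type libraries. The mutant values lay inside the wild-type range. The log2 fold change was 0.08 (SE 0.21, 95% interval -0.37 to 0.54, adjusted p = 0.774), so a change beyond 0.54 on this scale lies outside the interval. The deposited TPM, scaled to the same total per library, gave 52.6, 57.6 and 54.1 in the mutant and 40.0, 43.3 and 45.8 in wild type, values that do not overlap (log2 fold change 0.34, limma adjusted p = 0.141). On TPM the median of all tested genes was 0.30, so *daf-16* lay near it there as well. WBcel235 lists 11 transcripts for *daf-16* and 7 for *daf-2*, and the deposited values give 1 level per gene, so isoforms could not be followed.

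Per length, the order of the 9 genes in wild type was *daf-18* (120.1 ± 8.13 TPM), *akt-1* (68.8 ± 5.54), *daf-16* (43.0 ± 2.95), *age-1* (21.9 ± 1.81), *daf-2* (20.6 ± 14.9), *sgk-1* (19.8 ± 4.47), *akt-2* (7.05 ± 0.750), *pdk-1* (5.87 ± 1.48) and *ist-1* (2.19 ± 0.908). The ranges of *age-1*, *daf-2* and *sgk-1* overlapped, as did those of *akt-2* and *pdk-1*, and the other neighbours were separate. In the mutant *daf-18* (67.8 ± 30.9 TPM), *akt-1* (57.6 ± 7.16) and *daf-16* (54.8 ± 2.58) had overlapping ranges. *sgk-1*, at 30.8 ± 4.13 TPM in the mutant, lay above *daf-2* (18.5 ± 4.75) and *age-1* (14.5 ± 2.94) without overlap. Each of these is a mean ± SD of deposited TPM over 3 libraries.

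**Figure D3:**
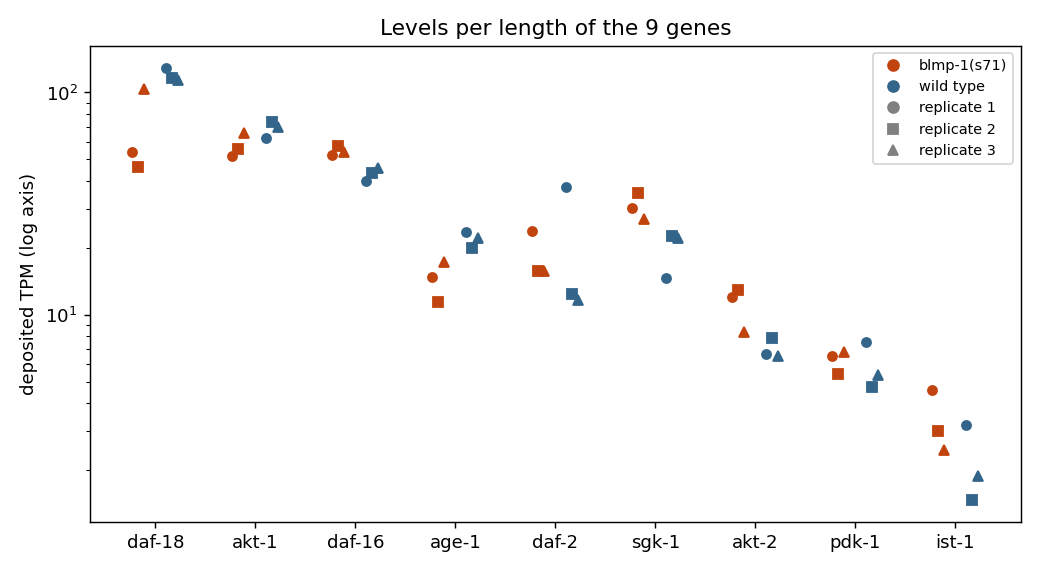
Deposited TPM (log axis) of each gene in each library, ordered by the wild-type mean, with the mutant (red) left of wild type (blue). *daf-18* leads clearly in wild type, from 114 to 129 TPM, and spans 46.3 to 103 TPM in the mutant, where it overlaps *akt-1* and *daf-16*.

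Markers of oocytes and of the germline as a whole were lower in the same libraries as *daf-18*, *age-1* and the uncalled *akt-1*, while sperm markers were not. limma called 7 of 12 oocyte markers lower and none higher, where edgeR called 3 and DESeq2 10. Of 12 germline markers it called 6 lower and none higher, and edgeR and DESeq2 each called 7. Of all tested genes, limma called 13.4% lower and 8.84% higher. The summed oocyte markers ranged from 2478 to 7132 scaled CPM in the mutant and from 7576 to 13290 in wild type, and the summed germline markers from 1255 to 2399 in the mutant and from 2720 to 3768 in wild type. No marker of either list was at 0. Relative to the wild-type mean, *daf-18* lay at -1.43, -1.67 and -0.44 (log2) in mutant libraries 1, 2 and 3, *age-1* at -0.83, -1.21 and -0.55, and *akt-1* at -0.68, -0.60 and -0.28. The mean of the oocyte markers lay at -1.56, -2.01 and -0.43 and that of the germline markers at -0.85, -1.18 and -0.47 in the same libraries. Mutant library 3 was nearest to wild type in all 5 of these measures. All 9 sperm markers had a positive log2 fold change, of which limma called 2 higher, edgeR 2 and DESeq2 4. None was at 0, they summed to between 344 and 479 scaled CPM in the mutant and between 211 and 313 in wild type, and their mean lay at 0.66, 1.03 and 0.57 (log2) in mutant libraries 1, 2 and 3. Of 11 neuronal markers limma called 4 higher and none lower, edgeR 5 and DESeq2 4, with none at 0 and sums of 586 to 718 scaled CPM in the mutant and 437 to 476 in wild type. The part of tissue composition in the *daf-18*, *age-1* and *akt-1* values was not tested.

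**Figure D4:**
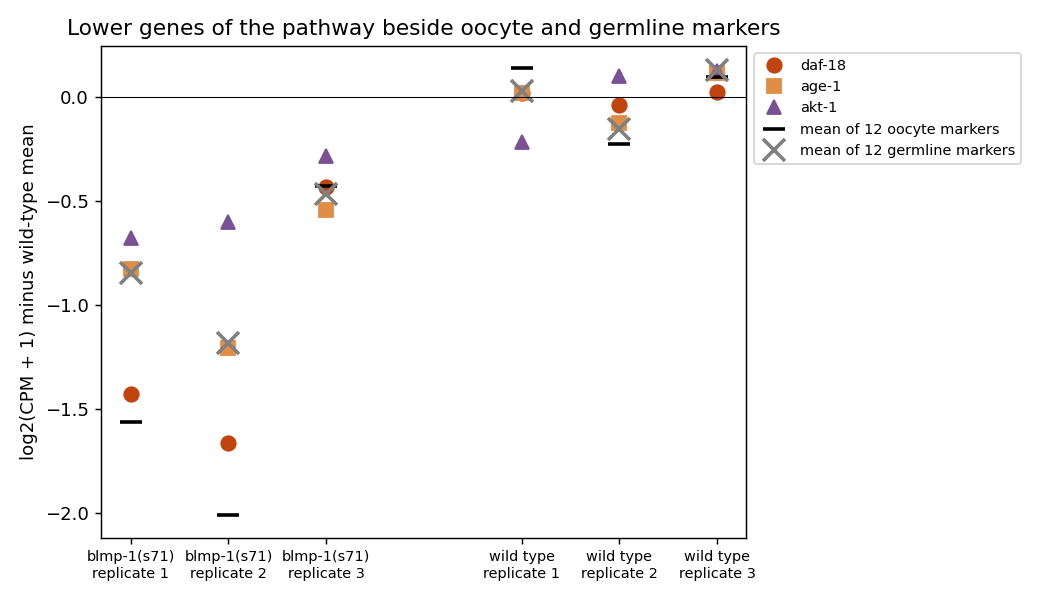
Log2(scaled CPM + 1) of *daf-18*, *age-1* and *akt-1* minus the wild-type mean in each library, beside the mean of 12 oocyte markers and of 12 germline markers. In mutant library 3 all 5 measures lie between -0.55 and -0.28, nearer to wild type than in mutant libraries 1 and 2.

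The 4 genes on the X chromosome, *ist-1*, *pdk-1*, *akt-2* and *sgk-1*, had a median log2 fold change of 0.34, and 0 passed in limma, edgeR or DESeq2, nor did any reach an unadjusted limma p of 0.05. The 5 on autosomes had a median of -0.52, and 2 of them fell. Among all tested genes, the median was 0.23 for 1884 genes on X and 0.00 for 11843 on autosomes, and 3.29% of the X genes fell against 15.1% of the autosomal ones. This comparison was made after the values had been seen, and its medians are relative to the TMM scale.

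Among the partners of PI3-kinase and AKT, 2 of 8 tested genes fell and none rose, beside 13.4% of all tested genes called lower and 8.84% called higher, with a list median of -0.10 beside 0.07 for all genes. *aap-1* (the adaptor subunit that pairs with AGE-1) had 30.2, 29.3 and 42.7 scaled CPM in the mutant libraries, against 45.6, 69.4 and 61.1 in the wild-type libraries (log2 fold change -0.77, SE 0.24, adjusted p = 0.0433). On scaled CPM, both subunits of PI3-kinase were therefore lower in every mutant library than in any wild-type library. The groups did not overlap, in either direction, for 48.6% of all tested genes. On the deposited TPM *age-1* did not overlap. There *aap-1* did, at 23.8, 23.5 and 32.3 in the mutant and 31.5, 45.0 and 37.2 in wild type. By limma, 1 gene of this list rose and 0 fell with no factor between libraries, and 0 were called with TPM. *eak-7*, which restrains DAF-16 in parallel to AKT-1, fell by 0.76 (adjusted p = 0.0393). *pptr-1*, a regulatory subunit of the phosphatase PP2A that acts on AKT-1, stood at -0.09 (adjusted p = 0.741).

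Of 25 tested genes whose products act with or on DAF-16, 5 fell and none rose, beside 13.4% of all tested genes called lower, with a median of -0.52. With no factor between libraries, or with the deposited TPM, 1 gene of this list rose and 0 fell by limma. The 5 included *imb-2*, an importin, at 109 scaled CPM in the mutant and 209 in wild type, *hcf-1*, a nuclear factor that restrains DAF-16, at 103 in the mutant and 190.5 in wild type, and *prmt-1*, an arginine methyltransferase, at 429 in the mutant and 823 in wild type (log2 fold changes -0.98, -0.92 and -0.96, adjusted p = 0.0346, 0.0348 and 0.0360). *eak-7* is also in this list. The 14-3-3 gene *par-5* stood at -0.57 (adjusted p = 0.0723) and the other 14-3-3 gene, *ftt-2*, at 0.27 (adjusted p = 0.304). Of the TOR and AMPK branch, 3 of 22 fell and none rose, a share near the 13.4% of all tested genes called lower, with a median of -0.41. The calls turned to 1 higher and 0 lower with no factor, and to 2 higher and 0 lower with TPM, by limma. The 3 genes were *par-4*, the LKB1 kinase upstream of AMPK (-0.90, adjusted p = 0.0337), *ragc-1*, a Rag GTPase (-0.73, adjusted p = 0.0425), and *mlst-8*, a TOR complex subunit (-0.66, adjusted p = 0.0490).

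On the ligand side, 14 of 40 insulin-like peptide genes had enough reads to be tested, and 3 were at 0 in every library. Of the 14, 1 rose and 1 fell, beside 8.84% of all tested genes called higher and 13.4% called lower. Their log2 fold changes were positive for 13 and negative for 1, with a median of 0.39 beside 0.07 for all tested genes. By limma, 4 rose and 1 fell with upper-quartile factors or with no factor between libraries, and 5 rose and 1 fell with the deposited TPM. *ins-37* had 7.03, 11.8 and 6.75 scaled CPM in the mutant libraries, against 4.45, 3.58 and 4.09 in the wild-type libraries (log2 fold change 0.88, SE 0.28, adjusted p = 0.0425). *ins-34* had 5, 4 and 8 reads in the mutant libraries, against 12, 26 and 30 in the wild-type libraries (log2 fold change -1.10, SE 0.25, adjusted p = 0.0337). It reached a CPM of 1 only in the wild-type libraries, so it was tested only through the group where it was high. Without the filter on low values, limma called 0 genes of this list. The agonists *daf-28* and *ins-6* stood at 0.35 and 0.20 and did not pass (adjusted p = 0.307 and 0.584).

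Among 30 tested genes known to be higher when DAF-16 is active, 4 rose and 1 fell, with a median of 0.29, and among 13 known to be lower, none rose and 2 fell, with a median of 0.09. Of all tested genes, 8.84% were called higher and 13.4% lower, with a median of 0.07. *sod-3*, a manganese superoxide dismutase often used as a reporter of DAF-16 activity, fell by 1.01 (SE 0.25, adjusted p = 0.0337), with 4, 18 and 13 reads in the mutant libraries, against 14, 35 and 37 in the wild-type libraries. *ftn-1*, a ferritin, had 11.5, 13.3 and 5.72 scaled CPM in the mutant libraries, against 2.11, 2.43 and 1.64 in the wild-type libraries, and rose by 1.81 (SE 0.31, adjusted p = 0.0162). *nnt-1*, a nicotinamide nucleotide transhydrogenase, and the metallothionein *mtl-1* rose by 1.19 and 1.20 (adjusted p = 0.0337 for both). *mtl-1* had 22, 41 and 32 reads in the mutant libraries, against 1, 13 and 12 in the wild-type libraries. It reached a CPM of 1 only in the mutant libraries, so it was tested only through the group where it was high. *dod-23* and *dod-24*, known to be lower when DAF-16 is active, fell by 1.34 and 1.13 (adjusted p = 0.0189 and 0.0337). The list of genes higher with active DAF-16 thus held calls in both directions on the TMM scale. By limma, 9 of its genes rose and 0 fell with no factor between libraries, and 9 rose and 1 fell with the deposited TPM.

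**Figure D5:**
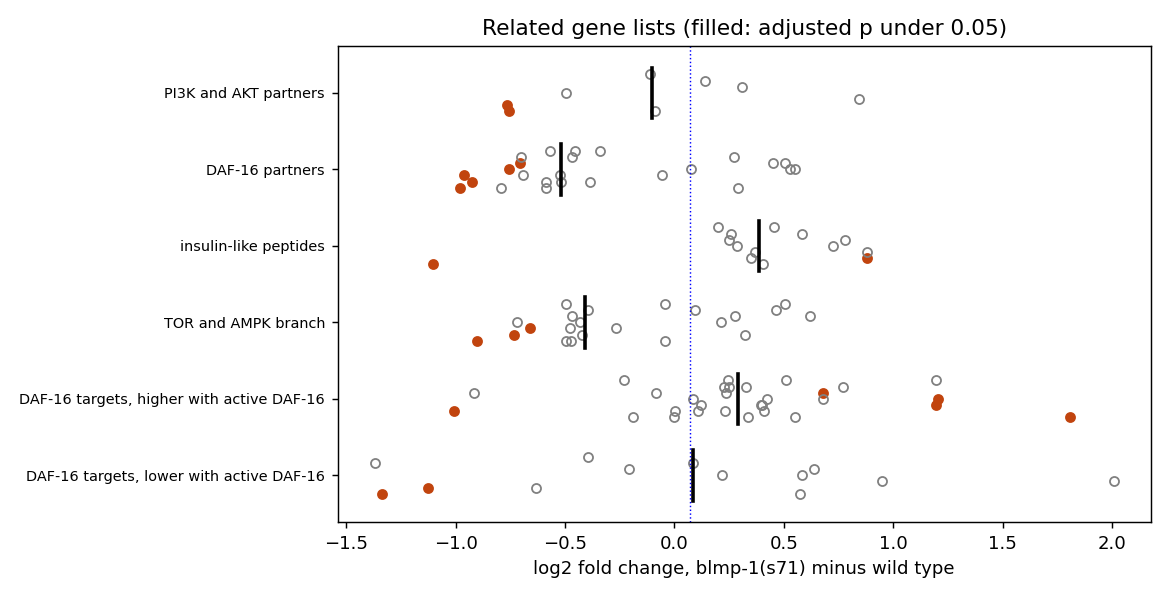
Log2 fold change (mutant minus wild type) of each tested gene in the 6 related lists; filled points had an adjusted p under 0.05, the black bar is the list median and the dotted line the median of all tested genes, 0.07. The medians run from -0.52 for the DAF-16 partners to 0.39 for the insulin-like peptides, of which only 14 of 40 could be tested.

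With 1 library left out at a time, *ftn-1* and *dod-23* were called by limma in 4 of the 6 fits and *dod-24* in 2, and the other called genes named from these lists were called only without mutant library 3. The direction of list calls depended on the scaling between libraries. Over all 6 lists together 5 genes rose and 13 fell with TMM, 13 and 12 with upper-quartile factors, 16 and 2 with no factor, and 17 and 4 with the deposited TPM. With no factor the median of all tested genes was 0.35, so each direction above is relative to the TMM scale. With no factor *daf-18* stood at -0.85 and was called (adjusted p = 0.0482), and *age-1* stood at -0.54 and was not (adjusted p = 0.118).

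The tested genes whose level followed *daf-2* most closely over the 6 libraries were *set-16*, *Y32H12A.8* and *clp-7*, with Pearson r of 0.998, 0.997 and 0.994. Without both libraries numbered 1, which lay farthest from the median of *daf-2*, r was 0.767, 0.712 and 0.680 over 4 libraries. For *daf-16* they were *F20G2.2*, *K09E2.3* and *nep-22*, with r of 0.989, 0.988 and 0.980. These are the highest values among 13756 genes, the points share their library's depth and scaling factor, and they are given as a description.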

How the data were processed

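Per the submitters' processing notes, the authors' tools included DESeq2 1.22.0, featureCounts 1.6.3, HISAT2 2.1.0 and Trimmomatic 0.36, whose roles those notes leave out. The authors deposited 1 CPM and 1 TPM value per gene and library, each summing to 1000000 per library, per the file headers and the values. Genome build, annotation, strand use and the treatment of multiply mapped reads are, in the sources used here, not given, and positions are from the WBcel235 annotation. Within 0.01 reads, 100% of CPM values in each library were whole multiples of 1 read, which gave the reads on genes. The table of the whole series repeats these values and was not used.

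CPM were divided by TMM factors computed from the recovered reads of all genes (0.813 to 1.21). Genes that reached a CPM of 1 in 3 or more libraries were tested on log2(CPM + 1) with limma 3.58.1 (R 4.3.3), with the group as its only term, mean-variance trend, robust moderation and Benjamini-Hochberg adjustment. edgeR 4.0.16 and DESeq2 1.42.0 on the recovered reads were alternatives. Members, gene lists and settings were chosen with earlier results of these data known, so no list is independent evidence.

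Named were all 9 members, *blmp-1*, up to 4 called genes of each related list by smallest adjusted p, and the 3 genes most like *daf-2* and *daf-16*. *pptr-1*, *par-5*, *ftt-2*, *daf-28* and *ins-6* were added after their values were seen. No label states a batch, so the groups were compared unpaired. Whether the replicate numbers pair the libraries could not be settled, and fits with a replicate block are given below. Of 6 tested intestine markers limma called 0 (0 also by edgeR, DESeq2 or an unadjusted limma p of 0.05). Of 8 epidermis markers limma called 2 lower and 0 higher, while edgeR called 2 and DESeq2 5 in either direction. The epidermis markers went both ways, with 6 positive and 2 negative log2 fold changes and a median of 0.43. Whether libraries came from separate cultures is not stated beyond the words biological replicates.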

Additional observations from a re-analysis of the deposited data

How the results depend on the processing

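limma called 3061 genes, 2 of the 9 members and 18 genes of the related lists. edgeR called 2823, 2 and 18, and DESeq2 3745, 2 and 21. Without a filter on low values the counts were 115, 0 and 2. At an adjusted p under 0.01 they were 38, 0 and 0, and without both replicate-1 libraries 125, 0 and 1. With TPM, or with no factor between libraries, 1 member, *daf-18*, was called. Leaving out 1 library at a time gave 39 to 4957 genes, 0 to 3 members and 0 to 28 list genes with limma. With edgeR it gave 80, 60 and 5210 genes without mutant libraries 1, 2 and 3, and 249, 92 and 82 without wild-type libraries 1, 2 and 3. With both tools the highest counts, and the call of *akt-1*, came without mutant library 3. Of all calls 39.7% were higher in the mutant, against 60.8%, 94.2% and 87.3% with upper-quartile factors, no factor and TPM. Same-numbered libraries deviated together in the first 2 pairs (r = 0.355 and 0.443) and not in the last (-0.0867), and no label says what a number marks, so whether the numbers pair the libraries could not be settled. A replicate block gave 5877, 3 and 42 calls with limma and 5512, 3 and 38 with edgeR, with *akt-1* as the added member. *daf-2* turned positive with TPM (0.032), no factor (0.10), without both replicate-1 libraries (0.17) and without wild-type library 1 (0.37 with limma and 0.41 with edgeR), and ranged from -0.48 to 0.37 with 1 library left out of limma. *pdk-1* turned positive under the same settings, at 0.092, 0.16, 0.047, 0.083 and 0.091, and ranged from -0.28 to 0.083 with 1 library left out of limma. The other 7 members kept their sign in all 29 alternatives. TMM factors from the tested genes alone, added after seeing the data, called the same number of members (2). The cause of these changes was not tested.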
